A study of Homo sapiens with 6 samples.

Results

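The genes described here are 34 genes of glycolysis and the hypoxia response, chosen by symbol from the 60612 Ensembl identifiers of the deposited count table. All 34 were found, and 33 of them were among the 17224 genes with enough counts to test. EGLN3 was the exception. They run from the glucose transporters SLC2A1 and SLC2A3 through the glycolytic enzymes to lactate dehydrogenase, the lactate exporters, the pyruvate dehydrogenase kinases and the oxygen-sensing genes HIF1A, VHL, EGLN1 and EGLN3, with BNIP3 and VEGFA as hypoxia-induced genes. RNA was sequenced from U937, an established human myeloid line whose cell type the labels give as acute myeloid leukemia and whose genotype they give as WT. Cells in RPMI-1640 with no serum received 1 µM B2, a compound known here only by that code, or DMSO, its vehicle, for 36 h, with 3 libraries in each group. Both groups therefore share the line and the serum-free medium, and a single line limits them as a model of leukemia. The comparison asks how B2 alters gene expression, and the series title names S100A9 as the target.

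Glycolysis splits glucose into pyruvate and yields ATP without oxygen. Lactate dehydrogenase and the monocarboxylate transporters dispose of the pyruvate as lactate, while the pyruvate dehydrogenase kinases hold it back from the mitochondria. When oxygen is low, the prolyl hydroxylases (EGLN genes) no longer mark HIF1A for VHL and the proteasome, and HIF1A then binds short hypoxia response elements with the core ACGTG or GCGTG and switches on most genes of this pathway. Activated myeloid cells are known for a high glycolytic rate.

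RefSeq promoter windows (GRCh38.p14) were matched for 29 of the 34 genes, and SLC2A3, PFKFB2, SLC16A1, VHL and VEGFA had no entry. ACGTG or GCGTG, read on both strands in the 250 bases before a start, occurred in 31 of 58 windows of these genes (53.4%) and in 15172 of 35116 windows of all genes (43.2%). ACGTG alone occurred in 36.2% against 18.5%, GCGTG in 31.0% against 32.2%, and CACGTG, which contains ACGTG and is also the E-box that MYC and other factors bind, in 13.8% against 6.3%. A match describes letters only and is no evidence of binding. Stretches of 3 genes are given here because HK2 and HK3, hexokinase isozymes with the same substrate, and GAPDH, the most abundant gene of the group, behaved differently in the results. Whether these motifs have any part in that behaviour was not tested. In GENCODE 29 (GRCh38) HK2 lies at chr2:74833981-74893359 on the plus strand, HK3 at chr5:176880869-176899332 on the minus strand and GAPDH at chr12:6533927-6538374 on the plus strand. Each stretch runs 5′ to 3′ on the gene's strand, and capitals mark ACGTG or GCGTG on either strand, with its first C where the motif is CACGTG. The HK2 stretch (chr2:74834970-74835169, plus strand, 200 bases, 74.0% GC) lies before the second RefSeq start of HK2 and in no GENCODE 29 exon. It holds 2 CACGTG and 2 GCGTG. The 250-base window before the first RefSeq start of HK2 held 2 ACGTG and 1 GCGTG. The HK3 stretch (chr5:176899347-176899546, minus strand, 200 bases, 50.5% GC) lies just before the gene and holds neither core. The GAPDH stretch (chr12:6535144-6535263, plus strand, 120 bases, 70.8% GC) lies before a RefSeq start inside the gene, in no GENCODE 29 exon, and holds 1 CACGTG.
HK2: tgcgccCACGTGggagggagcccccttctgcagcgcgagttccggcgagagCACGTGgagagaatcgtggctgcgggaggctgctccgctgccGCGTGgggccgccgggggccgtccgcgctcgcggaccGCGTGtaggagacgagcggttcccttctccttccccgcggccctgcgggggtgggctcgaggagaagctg
HK3: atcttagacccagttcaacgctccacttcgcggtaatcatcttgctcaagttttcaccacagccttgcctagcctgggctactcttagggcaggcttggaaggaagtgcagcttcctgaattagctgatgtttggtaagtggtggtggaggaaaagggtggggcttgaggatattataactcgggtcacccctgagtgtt
GAPDH: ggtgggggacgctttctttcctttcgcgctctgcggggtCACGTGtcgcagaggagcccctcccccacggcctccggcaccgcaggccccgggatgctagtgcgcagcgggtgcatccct

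Library totals ran from 61150740 to 78431054 counts, of which mitochondrially encoded genes took 6.44% to 10.3%, the most in DMSO replicate 1. The myeloid genes SPI1, CD33 and LYZ were present in every library. MPO, a marker of myeloid progenitors, was low, at 1.67 CPM or less. CPM is a gene's count scaled to its library's total over the tested genes multiplied by the library's TMM normalization factor. That factor was lowest in DMSO replicate 1, at 0.862, so CPM values of that library are higher than scaling by totals alone would give. The T cell genes CD3D, CD3E and CD3G, the B cell gene MS4A1 and the erythroid gene HBB stood at 0 everywhere. Replicate number 3 stood apart in both groups. The 15 macrophage markers summed to 151.8, 116.12 and 1810.6 CPM in B2 replicates 1 to 3 and to 207.33, 110.24 and 2053.2 CPM in the DMSO replicates, although MRC1 was at 0 in all 6 libraries and MSR1 in 5. Epithelial markers summed to 34.294, 32.897 and 43.071 CPM with B2 and to 4.3357, 12.52 and 30.69 CPM with DMSO, so every B2 sum was above every DMSO sum. All 7 epithelial markers had a positive log2 fold change of B2 over DMSO (median 1.19), as had 6535 of all 17224 tested genes. None passed edgeR's test at an adjusted p of 0.05. With replicate number added to the fit, none passed either. In that fit 4 of the 7 had an unadjusted p below 0.05, against 228 of all tested genes. Whether replicates are separate cultures is not stated in the labels, and p-values cover only library-to-library spread, part of which may be technical.

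The 34 genes spanned a wide range of levels. Per kilobase of exon (CPM per kb, the median of the 6 libraries), GAPDH was at 1583, ENO1 at 730.9, ALDOA at 607.9 and PKM at 514.7. TPI1, PGK1, PGAM1, GPI and LDHB fell between 128.3 and 241.5 on that scale and LDHA at 94.3. The gatekeepers at the top of the pathway were far lower, with HK1 at 39.5, PFKP at 39.2, PFKL at 39.1, HK3 at 27.5, SLC2A1 at 17.3, HK2 at 15.2 and SLC2A3 at 15.1 CPM per kb. The oxygen-sensing genes differed widely, with VHL at 43.7, HIF1A at 4.57 and EGLN1 at 2.07 CPM per kb. The brain-type isozymes ALDOC and ENO2, the muscle-type PFKM and the heart-type PFKFB2 stood at 0.363 or less, and EGLN3 at 0.0180 CPM per kb. EGLN3 held 10, 7 and 16 counts with B2 and 8, 6 and 10 counts with DMSO, too few to test.

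**Figure D1:**
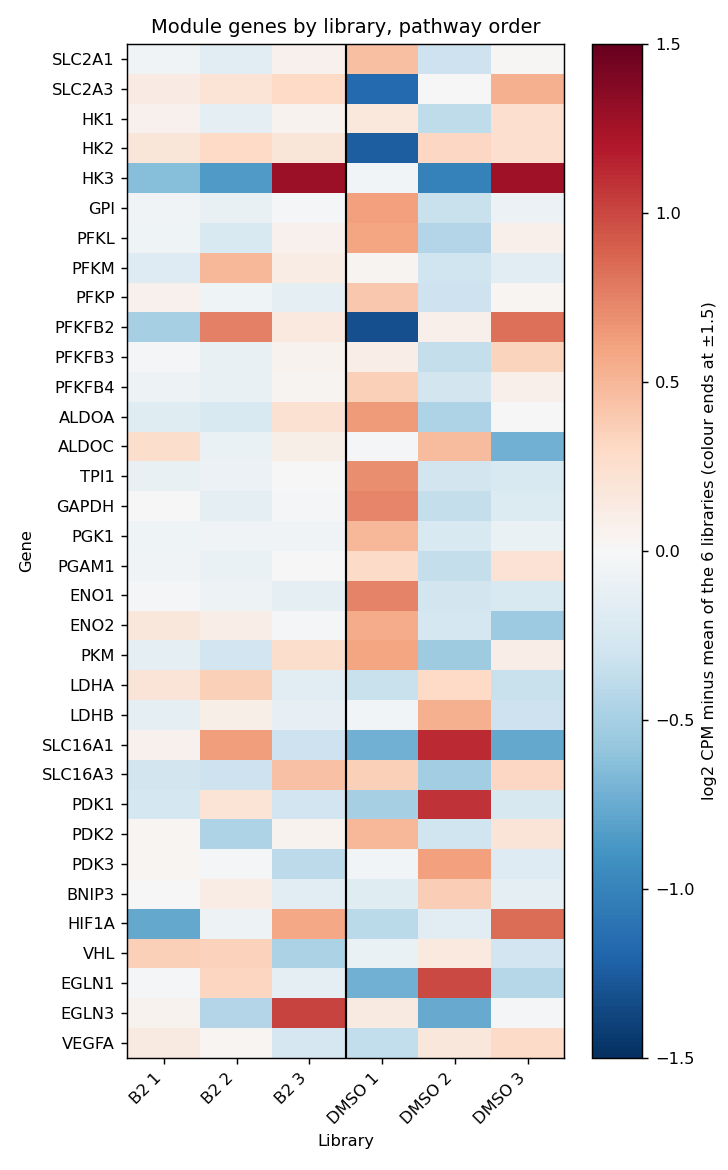
Level of each of the 34 genes (rows, in pathway order) in each library (columns, B2 left of the line and DMSO right of it), as log2 CPM minus the mean of the 6 libraries, with the colour ending at 1.5 in either direction. DMSO replicate 1 is red for most enzymes from GPI to PKM and blue for SLC2A3, HK2, SLC16A1 and EGLN1, while no row separates the B2 columns from the DMSO columns.

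No change with B2 was detected in any gene of the group. None of the 33 tested genes passed edgeR's quasi-likelihood test at an adjusted p of 0.05 (the smallest adjusted p was 1), against 0% of all tested genes, and none had an unadjusted p below 0.05, against 0.493% of all tested genes. DESeq2, limma-voom and the fit blocked on replicate number also called 0 of the 33. Log2 fold changes of B2 over DMSO ran from -0.39 for PDK1 to 0.30 for PFKM. They were positive for 9 genes and negative for 24, with a median of -0.11, beside a median of -0.08 over all tested genes, of which 6535 were positive and 10689 negative. Without DMSO replicate 1 the median was 0.05, with 19 genes positive and 14 negative. For 20 of the 33 genes (60.6%) the 95% interval lay within a 2-fold change in either direction, which held for 36.6% of all tested genes. The intervals of the other 13 reached past 2-fold, so changes of that size are not excluded for them. With the replicate number as a block, 27 of the 33 intervals (81.8%) lay within 2-fold, against 58.2% of all genes, and the SE of HK3 was 0.254 in place of 0.71. In no gene of the group did the 3 B2 libraries stand all above or all below the 3 DMSO libraries, which happened in 1.94% and 1.63% of all tested genes. In RNA from bulk cells, fewer cells expressing a gene and less of its RNA per cell cannot be told apart.

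**Figure D2:**
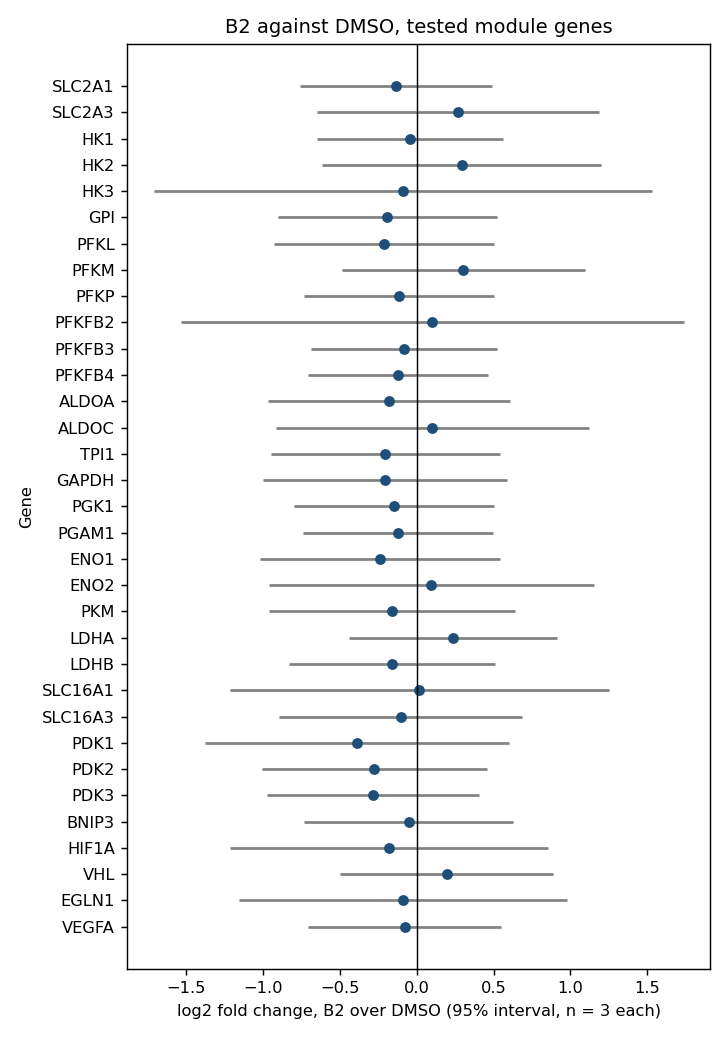
Log2 fold change of B2 over DMSO for the 33 tested genes (points, in pathway order from top to bottom) with its 95% interval (lines, edgeR, n = 3 libraries in each group). Every interval crosses 0, and HK3 and PFKFB2 have the widest.

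Uptake and capture of glucose came first along the pathway. SLC2A1, the ubiquitous glucose transporter GLUT1, stood at 79.98, 73.86 and 86.52 CPM with B2 and at 113.4, 67.01 and 83.66 CPM with DMSO. SLC2A3, the high-affinity transporter GLUT3 of leukocytes and neurons, stood at 90.65, 95.71 and 102.2 CPM with B2 and at 36.93, 82.86 and 119.7 CPM with DMSO. The B2 libraries of both transporters lay between the extremes of the DMSO libraries, and DMSO replicate 1 was the highest for SLC2A1 and the lowest for SLC2A3. The log2 fold change was -0.14 (SE 0.27) for SLC2A1 and 0.27 (SE 0.40) for SLC2A3, both within the spread of the libraries (edgeR adjusted p = 1).

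The hexokinases phosphorylate glucose and trap it in the cell. HK1, the constitutive isozyme, ranged from 216.0 to 250.1 CPM with B2 and from 184.2 to 284.8 CPM with DMSO. HK2, the inducible isozyme bound to mitochondria, stood at 89.66, 97.51 and 89.46 CPM with B2 and at 33.66, 97.74 and 94.45 CPM with DMSO. HK3, the isozyme found mainly in myeloid cells, stood at 72.07, 62.26 and 274.6 CPM with B2 and at 108.9, 55.58 and 270.9 CPM with DMSO. HK2 was even across 5 libraries and low in DMSO replicate 1, whereas HK3 was high in the library numbered 3 of both groups. The fold change was 0.29 (SE 0.40) for HK2 and -0.09 (SE 0.71) for HK3 on the log2 scale (edgeR adjusted p = 1 for both), and the sign of each turned when single libraries were left out.

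GPI, which converts glucose 6-phosphate to fructose 6-phosphate, ranged from 1670 to 1771 CPM with B2 and from 1441 to 2771 CPM with DMSO. Phosphofructokinase, the committed step, is assembled from PFKL, PFKM and PFKP subunits. PFKL, the liver-type subunit, stood at 333.7, 297.4 and 364.1 CPM with B2 and at 526.2, 258.4 and 368.5 CPM with DMSO, a log2 fold change of -0.21 (SE 0.31). PFKP, the platelet-type subunit, ranged from 174.0 to 200.2 CPM with B2 and from 154.1 to 254.0 CPM with DMSO. PFKM, the muscle-type subunit, stood at 2.290, 3.683 and 2.823 CPM with B2 and at 2.687, 2.125 and 2.319 CPM with DMSO, a log2 fold change of 0.30 (SE 0.34). The groups overlapped for all 3 subunits. Of the exon bases of PFKM, 8.6% lie opposite SENP1, which held 5827 counts against 1104 for PFKM, so part of the PFKM counts may belong to SENP1 if strand was not used in counting. PFKFB2, PFKFB3 and PFKFB4 make and remove fructose 2,6-bisphosphate, the activator of phosphofructokinase. PFKFB3 ranged from 69.85 to 78.19 CPM with B2 and from 59.06 to 95.02 CPM with DMSO, PFKFB4 from 85.27 to 94.56 CPM with B2 and from 75.86 to 117.5 CPM with DMSO, and PFKFB2 did not exceed 0.452 CPM with B2 or 0.477 CPM with DMSO.

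The lower stretch of the pathway, from aldolase to pyruvate kinase, carried the highest levels. ALDOA, which cleaves fructose 1,6-bisphosphate, ranged from 2160 to 2956 CPM with B2 and from 1830 to 3945 CPM with DMSO. TPI1, which interconverts the triose phosphates, ranged from 645.2 to 699.4 CPM with B2 and from 577.3 to 1135 CPM with DMSO. GAPDH, the dehydrogenase that follows, stood at 4970, 4534 and 4906 CPM with B2 and at 8346, 3908 and 4354 CPM with DMSO, which gave means of 4804 ± 236 CPM with B2 and 5536 ± 2444 CPM with DMSO (SD, n = 3 each). The B2 libraries of GAPDH kept within the range of the DMSO libraries, and the mean of DMSO was raised by replicate 1. Its log2 fold change was -0.20 (SE 0.35; edgeR adjusted p = 1), and GAPDH is widely used as a reference transcript. An antisense gene, ENSG00000269968, covers 14.2% of its exon bases and held 445 counts, against 2102309 for GAPDH. ENO1, the enolase, stood at 4096, 3953 and 3759 CPM with B2 and at 6970, 3427 and 3534 CPM with DMSO, a log2 fold change of -0.24 (SE 0.34). PKM, pyruvate kinase, stood at 4058, 3647 and 5362 CPM with B2 and at 6736, 3094 and 4765 CPM with DMSO, a log2 fold change of -0.16 (SE 0.35). For both, DMSO replicate 1 was the highest library and DMSO replicate 2 the lowest.

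PGK1 and PGAM1 had the same 2 libraries at their ends. PGK1, phosphoglycerate kinase, ranged from 1300 to 1314 CPM with B2 and from 1155 to 1912 CPM with DMSO. PGAM1, phosphoglycerate mutase, ranged from 545.8 to 588.3 CPM with B2 and from 456.0 to 712.2 CPM with DMSO. ALDOC and ENO2 did not exceed 1.25 and 0.908 CPM with B2, or 1.44 and 1.18 CPM with DMSO. In GENCODE 29, 42.3% of the exon bases of ALDOA are shared with ENSG00000285043 on the same strand, which held 119648 counts against 1060153 for ALDOA, so the ALDOA level is uncertain. Named pseudogenes took 2.68% to 3.40% of the reads counted to TPI1 and its copies.

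Lactate dehydrogenase turns pyruvate into lactate. LDHA, the subunit favoured in glycolytic cells, stood at 659.8, 738.9 and 511.4 CPM with B2 and at 457.0, 708.2 and 458.2 CPM with DMSO. It was the one gene of the 33 that was higher with B2 within every replicate number, by 0.53, 0.06 and 0.16 on the log2 scale, against 6.71% of all tested genes. Its log2 fold change was 0.23 (SE 0.29; edgeR adjusted p = 1), and the groups overlapped. LDHB, the subunit of oxidative tissues, ranged from 365.5 to 429.2 CPM with B2 and from 326.2 to 584.4 CPM with DMSO. The lactate transporter MCT1 (SLC16A1) stood at 43.32, 64.34 and 33.45 CPM with B2 and at 25.19, 89.94 and 24.34 CPM with DMSO, and was highest in both libraries numbered 2. SLC16A3, the low-affinity lactate exporter MCT4, stood at 299.1, 292.2 and 492.5 CPM with B2 and at 463.1, 251.2 and 449.5 CPM with DMSO. The log2 fold change was 0.02 (SE 0.54) for SLC16A1 and -0.10 (SE 0.34) for SLC16A3. Of the exon bases of SLC16A3, 5.4% lie opposite CSNK1D, which held 71452 counts against 153484 for SLC16A3, and 33.4% of those of LDHB are shared with ENSG00000285854, which held 1 count.

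The pyruvate dehydrogenase kinases had the 3 most negative fold changes of the 33 genes, all within the library spread. PDK1, which HIF1A induces, stood at 156.3, 217.2 and 154.0 CPM with B2 and at 133.7, 398.3 and 159.3 CPM with DMSO, a log2 fold change of -0.39 (SE 0.43; edgeR adjusted p = 1). The highest library was DMSO replicate 2, and without it the log2 fold change was 0.23. PDK1-AS1, opposite 3.0% of its exon bases, held 5051 counts against 87479 for PDK1. PDK2 stood at 18.89, 13.46 and 19.22 CPM with B2 and at 26.14, 15.15 and 21.17 CPM with DMSO. It was lower with B2 within every replicate number, by 0.47, 0.17 and 0.14 on the log2 scale, as were 9.12% of all tested genes. PDK2 was the one gene of the 33 for which this held, and its log2 fold change was -0.28 (SE 0.32). Of its exon bases, 38.6% lie opposite SAMD14, which held 49 counts against 7819 for PDK2. PDK3 stood at 49.35, 48.08 and 37.10 CPM with B2 and at 47.35, 74.12 and 42.32 CPM with DMSO, a log2 fold change of -0.28 (SE 0.30), with DMSO replicate 2 again the highest.

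None of the oxygen-sensing or hypoxia-induced genes passed the B2 test. HIF1A, the oxygen-regulated transcription factor, stood at 15.01, 24.26 and 38.07 CPM with B2 and at 19.26, 22.84 and 45.60 CPM with DMSO, a log2 fold change of -0.18 (SE 0.45). It was highest in the library numbered 3 of both groups. VHL, the ubiquitin ligase subunit that marks HIF1A for destruction, ranged from 129.9 to 231.4 CPM with B2 and from 148.0 to 199.2 CPM with DMSO, and was lowest in the libraries numbered 3. EGLN1, the main oxygen sensor, stood at 15.65, 19.84 and 14.46 CPM with B2 and at 9.67, 31.56 and 11.82 CPM with DMSO. VEGFA, the angiogenic factor induced by HIF1A, stood at 230.6, 213.8 and 177.1 CPM with B2 and at 162.9, 236.5 and 257.1 CPM with DMSO, with overlapping groups and a log2 fold change of -0.08 (SE 0.27). BNIP3, a mitophagy receptor, ranged from 10.90 to 13.27 CPM with B2 and from 10.79 to 15.88 CPM with DMSO, and its pseudogenes took 0.901% to 6.38% of the reads of the gene and its copies.

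DMSO replicate 1 stood apart in many of these genes. Its TMM factor was the lowest of the 6 libraries, at 0.862, which raised its CPM above scaling by totals alone. Compared with the median of the other 5 libraries, its level was 1.85-fold for ENO1, 1.84-fold for GAPDH, 1.77-fold for ALDOA, 1.76-fold for TPI1, 1.66-fold for PKM, 1.62-fold for GPI and 1.58-fold for PFKL. The same library had 0.36-fold of HK2, 0.39-fold of SLC2A3, 0.58-fold of SLC16A1 and 0.62-fold of EGLN1. It was the highest of the 6 libraries for 14 of the 33 genes, against 24.9% of all tested genes, and the lowest for 8, against 32.9%. DMSO replicate 2 was the lowest for 17 of the 33, against 23.1% of all tested genes, and the highest for 8, against 32.8%. Summed over the 34 genes, levels came to 22986, 21974 and 24856 CPM in B2 replicates 1 to 3, and to 35987, 19554 and 23009 CPM in the DMSO replicates, so both extremes were DMSO libraries. These counts were made after the values were seen and carry no test.

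The GC content of transcripts moved with these differences. Across the 33 genes, the Spearman correlation between mean transcript GC and the log2 difference of B2 minus DMSO was -0.59 in number 1, 0.42 in number 2 and 0.07 in number 3. Across 17015 tested genes with a GC value it was -0.33, 0.47 and -0.05. The genes share libraries and base composition, so these values describe the libraries only. With the GC trend of each library removed, DMSO replicate 1 still exceeded the median of the other 5 libraries by more than 0.5 on the log2 scale for 7 of the 33 genes (18.7% of all tested genes) and fell short by more than 0.5 for 4 (25.4% of all). Without that removal it did so for 12 (20.4% of all) and for 7 (35.7% of all). The group's median log2 difference was 0.30 with the trend removed, against 0.04 over all genes, and 0.21 without removal, against -0.16. For GAPDH the difference was 0.88 as measured and 0.58 with the trend removed, for ENO1 0.89 and 0.84, and for HK2 -1.49 and -1.35. The part of GC content, mitochondrial share and epithelial transcripts in the pattern was not tested beyond these values.

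**Figure D3:**
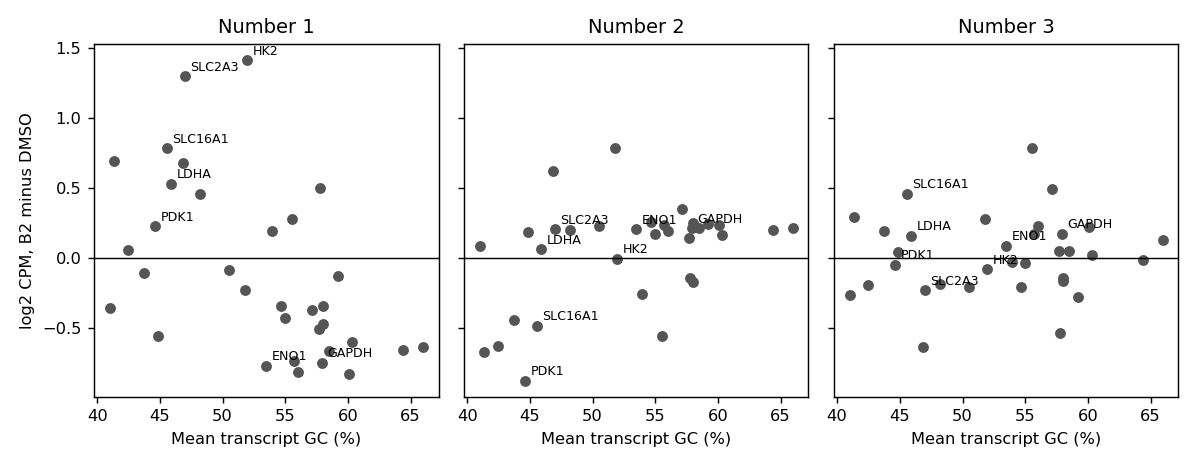
Log2 CPM of B2 minus DMSO (vertical) against the mean GC percentage of each gene's transcripts (horizontal) for the 33 tested genes, in 1 panel for each replicate number. The Spearman correlation is -0.59 in number 1, 0.42 in number 2 and 0.07 in number 3.

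More genes differed across replicate numbers than between treatments. Across the 3 numbers, with treatment in the model, 2.68% of all tested genes passed an adjusted p of 0.05 and 21.8% had an unadjusted p below 0.05. Of the 33 genes, 1 passed (HK3) and 5 had an unadjusted p below 0.05. HK3 averaged 4.63-fold more in the highest number, 3, than in the lowest (edgeR adjusted p = 0.0031). Its adjusted p was 0.121 without B2 replicate 3 and 0.0523 without DMSO replicate 3, settings that each leave number 3 with 1 library, and HK3 was still at 270.9 or 274.6 CPM in that library. The count of genes passing was 15 of the 33 without B2 replicate 1, where 22.9% of all genes passed, and 4 without B2 replicate 2, where 9.61% passed. SLC16A1 (edgeR adjusted p = 0.0799, highest in number 2), HIF1A (0.104, number 3), PDK1 (0.138, number 2) and EGLN1 (0.179, number 2) did not pass. SLC16A1 and HIF1A passed in the alternatives with DESeq2, limma-voom, counts divided by 4 and a stricter filter on low counts. The median fold between the highest and lowest number was 1.54 over the 33 genes and 1.69 over all tested genes. Both libraries numbered 3 stood above the other 4 for SLC2A3, HK3 and HIF1A, 3 of the 33 genes, against 12.3% of all tested genes. They stood below the other 4 for PDK3 and VHL, 2 of the 33, against 12.1%.

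Macrophage markers were highest in number 3, as were HK3 and HIF1A, of which HIF1A did not pass the test across numbers. All 11 macrophage markers that could be tested, of 15 listed, passed that test, against 2.68% of all tested genes. All 11 were highest in number 3. Of the markers not tested, C1QB and FCGR3A were also highest in number 3, whereas MRC1 and MSR1 were at 0 CPM in both libraries numbered 3. CD14, a monocyte and macrophage receptor, stood at 0.772, 0.616 and 120.7 CPM with B2 and at 1.29, 0.361 and 109.6 CPM with DMSO. CD68, a lysosomal glycoprotein, stood at 90.97, 61.19 and 541.0 CPM with B2 and at 113.9, 56.10 and 679.1 CPM with DMSO. Their part in the HK3 result was not tested.

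**Figure D4:**
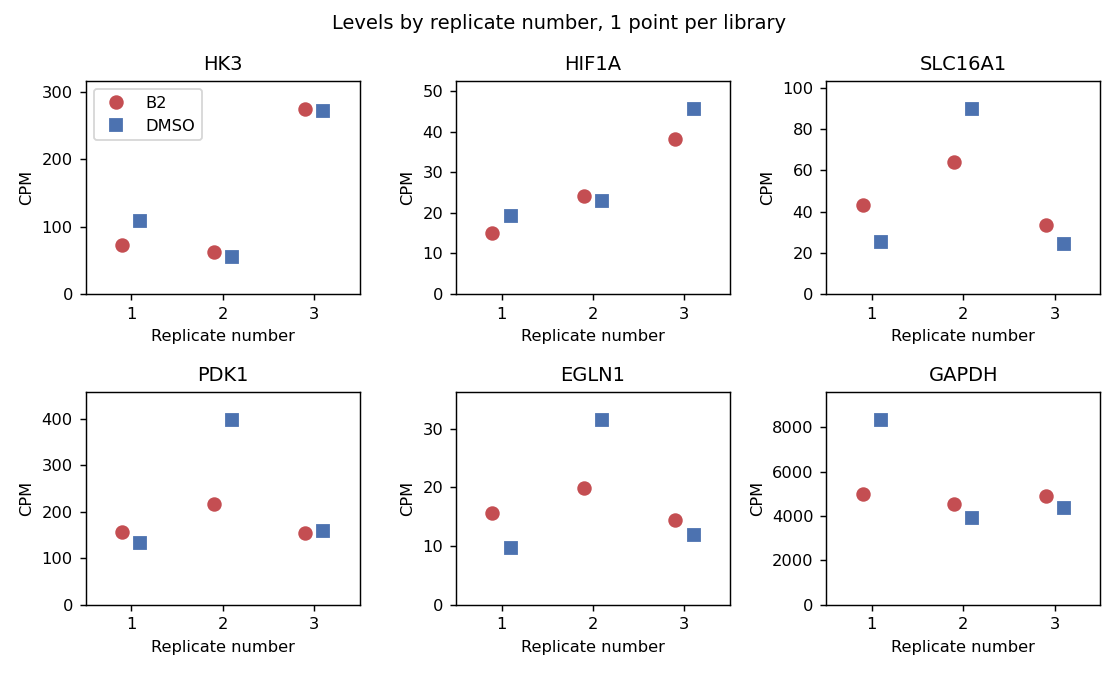
CPM of 6 genes (1 panel each, linear axis from 0) by replicate number, with 1 point per library, circles for B2 and squares for DMSO. HK3 and HIF1A are highest in number 3 in both groups, SLC16A1, PDK1 and EGLN1 in number 2, and GAPDH stands out in DMSO replicate 1 at 8346 CPM.

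Isozyme shares were computed from levels per exon length. That length covers all annotated exons of a gene, which may exceed the transcripts expressed here, so shares and their order depend on it. SLC2A1 held 53.5%, 50.1% and 52.5% of the transporter RNA with B2 and 80%, 51.3% and 47.7% with DMSO. HK1 held 52%, 49.5% and 28.6% of the hexokinase RNA with B2 and 52.2%, 47% and 31.6% with DMSO. HK3 held 28.7%, 27.3% and 60.7% with B2 and 41%, 27.1% and 57.5% with DMSO. On this scale HK3 exceeded HK1 in both libraries numbered 3 and in no other library. By CPM, HK3 was above HK1 in B2 replicate 3 (274.6 against 247.2) and below it in DMSO replicate 3 (270.9 against 284.8). HK2 held 19.4%, 23.2% and 10.7% with B2 and 6.87%, 25.9% and 10.9% with DMSO.

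Further down the pathway, PFKL and PFKP shared the phosphofructokinase RNA almost evenly per exon length, with PFKL between 46.4% and 52.9%. PFKM was at 0.701% or less in any library. LDHA held 46.5%, 45.3% and 39.7% of the lactate dehydrogenase RNA with B2 and 35.8%, 36.8% and 40.3% with DMSO, with LDHB the larger part everywhere on this scale. That order depends on the exon lengths used, 6210 bases for LDHA and 2983 for LDHB. By CPM, LDHA was above LDHB in every library. SLC16A1 held 19.7%, 27.2% and 10.3% of the RNA of both lactate transporters with B2 and 8.43%, 37.7% and 8.4% with DMSO. PDK1 held 43.9%, 54.5% and 48.5% of the kinase RNA with B2 and 38.5%, 60.1% and 46.3% with DMSO. The enolases were the one family whose shares did not overlap between the groups. ENO2 held 0.0273%, 0.0269% and 0.026% of the enolase RNA with B2 and 0.0209%, 0.0241% and 0.0193% with DMSO, and ENO1 held the rest. This difference was picked from all the shares, rests on few ENO2 counts and carries no test. The CPM of ENO2 and of ENO1 overlapped between the groups.

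**Figure D5:**
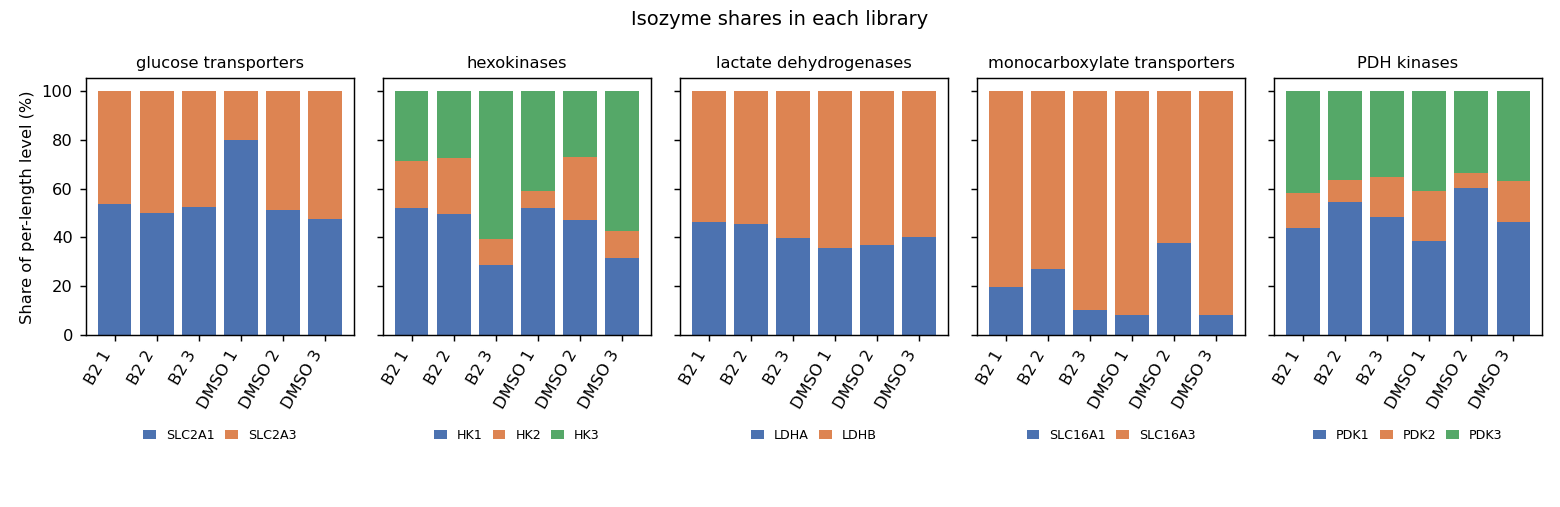
Share of each family's RNA held by each isozyme (stacked bars, percent of the level per exon length) in every library, B2 left of DMSO. HK3 reaches 60.7% of the hexokinase RNA in B2 replicate 3 and 57.5% in DMSO replicate 3, and SLC2A1 reaches 80% in DMSO replicate 1.

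Of 4 further lists of genes around the pathway, no gene passed edgeR's test of B2 and none had an unadjusted p below 0.05. Of 35 further genes of the HIF pathway and hypoxia response, 31 were tested (13 positive, 18 negative, median log2 fold change -0.04). The smallest p of this list belonged to PLOD2, a collagen lysyl hydroxylase, at 0.528, 0.575 and 0.809 CPM with B2 and at 0.215, 0.348 and 0.335 CPM with DMSO, and to CA12, a carbonic anhydrase, at 0.854, 0.945 and 1.40 CPM with B2 and at 0.520, 0.477 and 0.734 CPM with DMSO. These were the 2 of the 31 tested genes with every B2 library above every DMSO library, which happened in 1.94% of all tested genes. Their log2 fold changes were 1.08 (SE 0.52) and 0.88 (SE 0.45), with an edgeR adjusted p of 1, at 1.40 CPM or less in any library. Of 30 further isozymes and pyruvate entry genes, 18 were tested (5 positive, 13 negative, median -0.09), and of 18 genes of the pentose phosphate and glycogen branches all 18 (6 positive, 12 negative, median -0.14). Of 17 regulators around MYC and mTORC1, 15 were tested (6 positive, 9 negative, median -0.07).

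Genes of these lists that passed the test across replicate numbers included ADM, TXNIP, TIGAR, TFRC and GBE1. ADM, the vasodilator peptide adrenomedullin, stood at 0.312, 0.534 and 5.93 CPM with B2 and at 0.555, 0.670 and 7.78 CPM with DMSO (edgeR adjusted p = 0.000129). TXNIP, which restrains glucose uptake, stood at 142.1, 157.1 and 462.4 CPM with B2 and at 84.06, 165.4 and 373.9 CPM with DMSO (edgeR adjusted p = 0.00904). TIGAR was also highest in number 3 (edgeR adjusted p = 0.0241). TFRC, the transferrin receptor, stood at 101.4, 160.6 and 63.26 CPM with B2 and at 109.3, 349.1 and 56.77 CPM with DMSO, and the glycogen branching enzyme GBE1 was, like it, highest in number 2 (edgeR adjusted p = 0.0216 and 0.0193).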

How the data were processed

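RNA was sequenced from 3 B2 and 3 DMSO libraries. The values that the authors deposited are estimated counts for Ensembl genes, in a single table and without normalization. The submitters' processing notes name HISAT2 2.0.4 as a tool. How reads were counted, on which build and annotation and with which use of strand, is not given in the sources used here. Deposited values were whole numbers, with an excess at 4 (6465 values, against 3144 at 3 and 2022 at 5), so small counts are inexact, and an alternative used all counts divided by 4. Symbols came from a gene name table (60401 identifiers) and GENCODE 29 (187), which also gave positions and exon lengths on GRCh38.

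Genes were filtered with filterByExpr (minimum count 10, total 15), scaled by TMM (factors 0.862 to 1.07) and tested with edgeR 4.0.16 (glmQLFit and glmQLFTest, R 4.3.3), once for treatment and once for replicate number with treatment in the model. Benjamini-Hochberg adjustment covered all tested genes at 0.05. The filter needs 3 libraries, so a gene high only in both number 3 libraries may be left out. SE is from the fold change and its F statistic. Alternatives used RLE, upper-quartile and total scaling, other filters, DESeq2 1.42.0, limma-voom (3.58.1), a replicate block and each library left out.

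Libraries that share a number deviated together from their group means (correlations of 0.21, 0.40 and 0.50 for numbers 1 to 3), which meets the rule for pairing used here (each above 0.1). The main B2 test, its SE and its intervals nevertheless have treatment as the only term, and the block is an alternative. The pairing comes from the data, since no label says what a number stands for. Full values are given for members past a threshold, for the 8 smallest p-values of each test and for 6 preset genes. The members, lists and rules were chosen with earlier results of these data known. The GC removal was chosen after seeing the data. Some items of the lists are not reported here.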

Additional observations from a re-analysis of the deposited data

How the results depend on the processing

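No gene of the 33 passed the B2 test under any of 19 alternatives, the replicate block included, which changed no call of the group. Across all genes, the B2 test called 0 under edgeR (85 at an unadjusted p below 0.05) and 1 under DESeq2 on the filtered genes. It called 48 under the replicate block with both libraries numbered 3 left out, and 0 to 1 with single libraries left out. Across numbers, the main count of 461 genes became 956 with RLE factors, 1168 with upper-quartile factors, 266 with library totals, 2110 with a stricter filter, 1686 with DESeq2, 1278 with limma-voom, 2379 with counts divided by 4, and 388 to 4124 with single libraries left out (4124 without B2 replicate 1, 1726 without B2 replicate 2). Within the group the count of 1 became 2 with upper-quartile factors, 3 with the stricter filter, DESeq2, limma-voom and counts divided by 4, and 0 to 15 with single libraries left out, 15 without B2 replicate 1. The cause was not tested.

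The median log2 fold change of the group ran from -0.27 without DMSO replicate 2 to 0.05 without DMSO replicate 1. Fold changes of 28 of the 33 genes changed sign with a library left out, 18 of them without DMSO replicate 1, and 7 under another alternative. With library totals HK1 was 0.051, PFKFB3 0.0089 and BNIP3 0.0135. With the replicate block and both libraries numbered 3 left out, HK1 was 0.072, PFKFB3 0.0575, ALDOC -0.14, ENO2 -0.0099, EGLN1 0.0098 and VEGFA 0.18. EGLN1 was 0.092 with limma-voom, 0.11 with the replicate block, 0.13 with the GC trend removed and 0.17 with both. With single libraries left out, log2 fold changes were ALDOA -0.44 to 0.18, ALDOC -0.15 to 0.39, BNIP3 -0.14 to 0.12, EGLN1 -0.36 to 0.60, ENO1 -0.46 to 0.19, ENO2 -0.11 to 0.49, GAPDH -0.44 to 0.23, GPI -0.41 to 0.15, HIF1A -0.58 to 0.29, HK1 -0.24 to 0.080, HK2 -0.049 to 0.51, HK3 -1.11 to 0.73, LDHB -0.33 to 0.079, PDK1 -0.65 to 0.23, PFKFB2 -0.27 to 0.66, PFKFB3 -0.27 to 0.082, PFKFB4 -0.30 to 0.053, PFKL -0.46 to 0.092, PFKP -0.31 to 0.097, PGAM1 -0.33 to 0.0041, PGK1 -0.32 to 0.12, PKM -0.43 to 0.16, SLC16A1 -0.29 to 0.89, SLC16A3 -0.39 to 0.058, SLC2A1 -0.33 to 0.10, SLC2A3 -0.066 to 0.68, TPI1 -0.41 to 0.20, VEGFA -0.25 to 0.054. Depth limits EGLN3, PFKFB2, ENO2 and ALDOC, which held at most 112 counts in any library.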
